A study of Mus musculus with 8 samples.

Results

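Parvalbumin interneurons were examined in single-nucleus RNA-seq of the mouse hippocampus, where 131 of 32041 retained nuclei (0.409%) met the definition. A nucleus was retained when at most 5% of its unique molecular identifiers (UMIs, counts of single captured transcripts) came from mitochondrial genes and when it held 200 to 7500 detected genes. It was called inhibitory when Gad1 and Gad2, the enzymes that make GABA, together had at least 3 UMIs and more than the vesicular glutamate transporters Slc17a7 and Slc17a6 together. Members were then chosen by their own counts of marker genes, as inhibitory nuclei with at least 2 UMIs of Pvalb, at most 2 of Sst and at most 1 of Vip. Of 1678 inhibitory nuclei, 131 (7.81%) were members, 442 held at least 3 Sst UMIs (Sst nuclei), 129 held at least 2 Vip UMIs (Vip nuclei) and 976 remained.

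The libraries came from 8 mice in 4 groups on a C57BL/6 background (C57BL/6N in the study's methods), with 1 library for each mouse. Wild type mice (WT, 3 mice, 7 months old) were set against mice homozygous for a constitutive deletion of exons in Gsap, made with a CMV-driven Cre (GKO, 3 mice, 7 months old). Gsap encodes gamma-secretase activating protein, and the question was what its loss changes in the hippocampus. In addition, 1 mouse carried the J20 transgene, a mutant human amyloid precursor protein driven by the PDGFB promoter, on wild type Gsap (J20;WT, 6 months old), and 1 carried it with the Gsap deletion (J20;GKO, 6 months old). Both J20 groups hold a single mouse and differ from the other groups in age as well, so their values are given with counting intervals and enter no test of genotype.

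Parvalbumin interneurons are fast-spiking GABAergic cells that arise in the medial ganglionic eminence of the embryo. Basket cells among them contact the soma and proximal dendrites of pyramidal neurons, and axo-axonic cells contact the axon initial segment. Kv3 potassium channels repolarize their membrane quickly, synaptotagmin 2 and P/Q-type calcium channels couple their spikes tightly to GABA release, and the energy demand of fast spiking is met by abundant mitochondria. They pace gamma oscillations, and many are enclosed by perineuronal nets of chondroitin sulfate proteoglycans.

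Each library gave between 7 and 31 parvalbumin nuclei. WT mice gave 15, 23 and 11, GKO mice 10, 31 and 19, the J20;WT mouse 7 and the J20;GKO mouse 15. Summed over the members of a mouse, depth ran from 119714 to 540686 UMIs, and this sum is the unit of every expression value below, written as CPM (a gene's UMIs per 1000000 UMIs of the class in that mouse). The median member held 16154 UMIs (range 2225 to 39703) and 5151 genes, and its median Pvalb count was 3 UMIs. No member shared its cell barcode with a nucleus of another library, although 134 barcodes occurred in more than 1 library. Xist exceeded 1000 CPM in 3 libraries, namely 1 WT, 1 GKO and the J20;GKO library. That WT and that GKO library are also the pair dated first in the deposited files. Sex and date therefore cannot be told apart within the WT and GKO groups. In the J20;GKO library Xist was at 2410 CPM and 4 Y-linked genes together at 2.18 CPM. In the J20;WT library these were at 3.00 and 454 CPM. The J20 mice thus differ in sex as well as in Gsap genotype.

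The label was checked against Kcnc2, Erbb4 and Gad1, the markers named for this cell type besides Pvalb, and against inhibitory nuclei on the other side of the Pvalb threshold. Gad1 belongs to the definition, and Kcnc2 ran from 1531 to 2567 CPM, median 1853, in the 8 mice against 588 to 1288 CPM, median 1035, in the other inhibitory nuclei (1.00 ± 0.13 on the log2 scale) without overlap. At least 2 Pvalb UMIs were found in 159 inhibitory nuclei (9.48%, median depth 12538 UMIs) but in 22 of 9835 excitatory nuclei (0.224%, median depth 12368 UMIs), a class taken as background. Of the 159, 27 were left out for Sst and 1 for Vip. Among nuclei that met the Sst and Vip limits, the pooled level of Kcnc1 was 240 CPM in the 904 nuclei without a Pvalb UMI, 589 in the 72 with 1, 766 in the 40 with 2, 792 in the 33 with 3 and 934 in the 58 with 4 or more. Syt2 ran over the same steps through 9.66, 79.9, 121, 157 and 250 CPM. Nuclei with a single Pvalb UMI, just outside the threshold, therefore lay between the members and the Pvalb-negative nuclei in both genes. In the named markers Kcnc2 and Erbb4, however, they lay near the members. Kcnc2 ran over the same steps through 650, 1762, 2120, 1826 and 1810 CPM, and Erbb4 through 4836, 7632, 7850, 7869 and 7772 CPM. Adarb2, which marks interneurons of caudal origin, was at 4082 CPM without Pvalb, 1285 with 1 UMI and 109 with 2. These steps describe the choice of members and were not tested.

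The promoter of Pvalb itself, the gene that defines these nuclei, is shown because it holds an AT-rich element of the kind bound by Mef2c, a transcription factor that was higher in them. Pvalb has 2 promoter windows, and the first that holds a match is shown. It covers the 250 bases before a RefSeq start (GRCm38.p6, chr15:78206401-78206650, minus strand, shown 5′ to 3′ in the direction of transcription). The MEF2 consensus, in capitals, has its first base 180 bases before that start and matches on both strands. Of 32851 promoter windows of this length, 2.92% contained a match, as did 1.41% of windows of all tested genes, 0.722% of those of genes over 1 log2 unit higher in parvalbumin nuclei (2 genes) and 2.20% of those lower (11 genes). A match in letters does not show binding.
Pvalb: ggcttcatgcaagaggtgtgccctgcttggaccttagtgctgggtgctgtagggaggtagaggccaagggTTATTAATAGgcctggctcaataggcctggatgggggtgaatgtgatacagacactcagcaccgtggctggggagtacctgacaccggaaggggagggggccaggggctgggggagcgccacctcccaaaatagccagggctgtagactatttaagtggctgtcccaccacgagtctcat

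Compared with the other inhibitory nuclei of the same mice, parvalbumin nuclei had higher levels of Syt2, of most Kv3 and Kv1 channel genes and of the mitochondrial regulators Esrrg and Ppargc1a. They had lower levels of all tested caudal-lineage genes and of the cannabinoid receptor gene Cnr1. Of 9995 genes tested outside the definition with edgeR's quasi-likelihood test, mouse as a block and Benjamini-Hochberg adjustment, 1152 were higher (11.5% of those tested) and 1223 lower (12.2%) at an adjusted p under 0.05. With a log2 fold change over 1 as well, 279 were higher (2.79%) and 571 lower (5.71%). The median log2 fold change of all tested genes was -0.0063. Members were deeper than the other inhibitory nuclei (median 16345 ± 2356 against 12598 ± 1790 UMIs, SD, n = 8 mice, higher in 8 of 8). A limit of at least 2 Pvalb UMIs favours deeper nuclei, and its part in this difference was not tested. Among nuclei that met the Sst and Vip limits, median depth was 12355.5 UMIs without Pvalb and 16803.5 with 4 or more. On sums thinned to 5000 UMIs per nucleus 157 genes were higher and 341 lower by the second criterion, of which 403 were among the 850 above. Summed markers of other cell types overlapped between members and the other inhibitory nuclei, at 332 to 610 against 403 to 735 CPM for 8 excitatory genes and 66.8 to 816 against 134 to 358 CPM for 6 oligodendrocyte genes. Those of 6 astrocyte genes were lower in members in 7 of 8 mice, at 30.1 to 170 against 105 to 302 CPM, and the part of these markers in the gene differences was not tested. Numbers in parentheses after a gene are log2 fold changes, with ± SE where given. Overlap of ranges was examined only for listed and named genes. How common its absence is among all tested genes was not counted.

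Of the genes named for the size of their change, Syt2 was the furthest up. It is a fast calcium sensor of transmitter release. It ran from 95.5 to 281 CPM, median 177, across the 8 mice in parvalbumin nuclei and from 6.87 to 16.8 CPM, median 12.4, in the other inhibitory nuclei, a log2 fold change of 3.88 ± 0.18 (SE, adjusted p = 6.73e-14). The lowest parvalbumin value lay far above the highest of the others. Adamtsl5, a secreted ADAMTS-like matrix protein, stood at 59.5 to 138 CPM, median 86.8, against 6.17 to 12.1 CPM, median 9.98, a log2 fold change of 3.35 ± 0.17. Mypn, whose product myopalladin is best known from the muscle sarcomere, stood at 30.1 to 117 CPM, median 64.2, against 3.43 to 14.8 CPM, median 6.70. Neither gene's ranges overlapped. The same rule, the largest log2 changes among genes that moved alike in all 8 mice, also named the protease gene Tll1 (2.29), the kinase gene Nek7 (2.34), the sphingosine phosphate phosphatase gene Sgpp2 (2.37), Phlda1 (2.50) and the unnamed gene models Gm26633 (3.49) and Gm26673 (2.66).

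**Figure D1:**
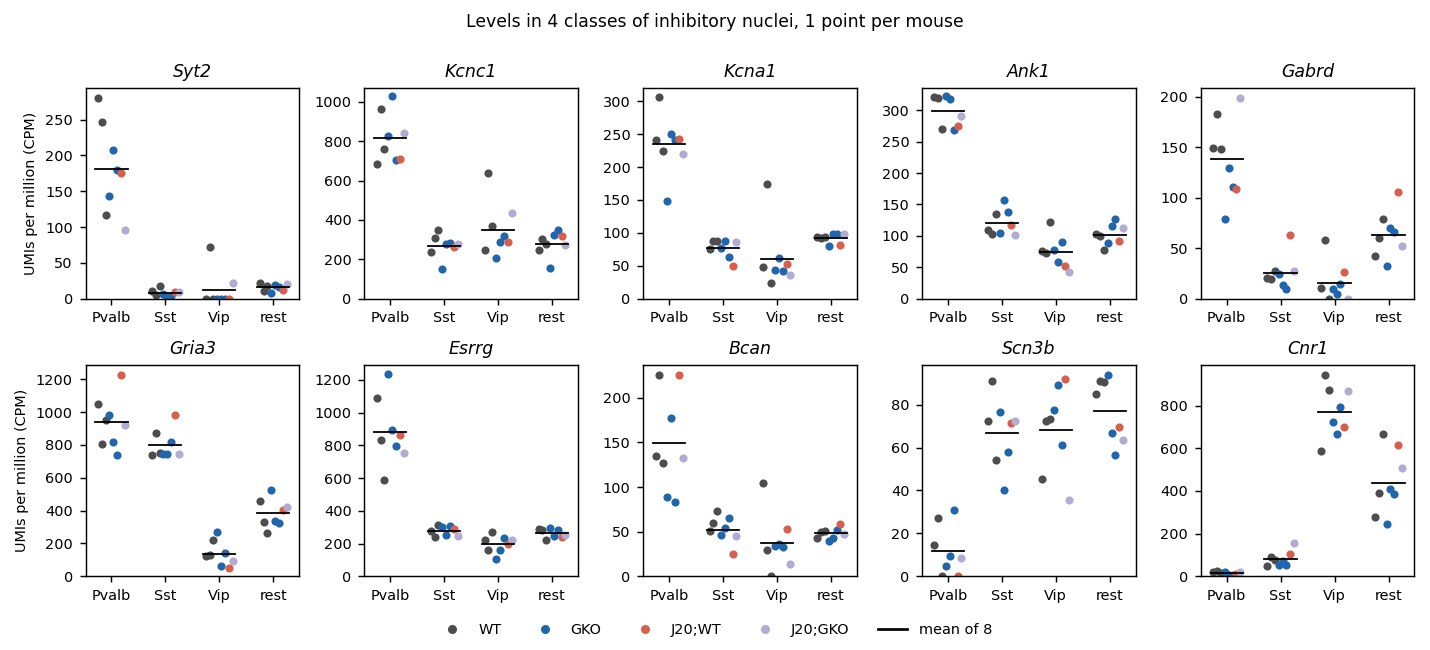
Levels (CPM) of 10 genes in parvalbumin, Sst, Vip and remaining inhibitory nuclei, with 1 point for each of the 8 mice and a bar at their mean. Syt2, Kcnc1, Kcna1, Esrrg and Bcan were highest in the parvalbumin nuclei, whereas Scn3b and Cnr1 were lowest there.

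Potassium channels of the Kv3 and Kv1 families, which set fast repolarization and axonal excitability, were mostly higher. Of the 13 listed genes, 12 were tested, 8 were higher and 2 lower, with a median log2 fold change of 0.85. Kcnc1 (Kv3.1), the principal fast delayed rectifier of these cells, lay at 682 to 1028 CPM, median 794, in parvalbumin nuclei and at 158 to 325 CPM, median 303, in the others (1.58 ± 0.11, adjusted p = 5.61e-12). Kcna1 (Kv1.1), found along axons, lay at 149 to 307 CPM, median 241, against 69.3 to 92.9 CPM, median 85.3 (1.48 ± 0.10, adjusted p = 1.64e-12). Every parvalbumin value of both genes exceeded every value of the other inhibitory nuclei. Kcnab3, an auxiliary beta subunit of Kv1 channels, changed most of the list, and lay at 43.8 to 112 CPM, median 68.8, against 7.15 to 21.7 CPM, median 12.8 (2.35 ± 0.20). Kcnc2 (1.00), Kcna2 (0.92), Kcnab1 (0.77) and Kcnab2 (0.61) were among the other genes higher. The inactivating family members moved the other way, with Kcnc4 (Kv3.4) at a log2 change of -2.23 (adjusted p = 0.000654) and Kcna4 (Kv1.4) at -2.18 (adjusted p = 0.00167). Both were sparsely counted in the members, Kcnc4 at 0 to 10.9 CPM and Kcna4 at 0 to 8.30 CPM over the 8 mice. Kcna6 (0.12) and Kcns3 (0.28), the latter listed though of neither family, did not pass the test.

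The other potassium and HCN channels were divided, with 5 of 19 tested genes higher and 7 lower. Kcnip2, a Kv4 partner (1.15 ± 0.28), Kcnma1, the large-conductance calcium-activated channel (0.85 ± 0.09), the pacemaker channel Hcn2 (0.40) and the sodium-activated channel Kcnt1 (0.53) were among those higher. The lower genes included the small-conductance channel Kcnn3 at -3.24 ± 0.38, Kcnt2 at -2.80 ± 0.21, the M-current subunit Kcnq5 at -2.36 ± 0.23 and the A-type subunit Kcnd3 at -1.56 ± 0.17.

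Sodium channel genes and their partners were divided, with 5 of 13 tested higher and 5 lower. Ank1, an ankyrin that anchors membrane proteins to the spectrin skeleton, lay at 269 to 322 CPM, median 304, against 91.0 to 128 CPM, median 103 (1.51 ± 0.10) and did not overlap. The pore-forming subunits Scn8a (0.68) and Scn1a (0.60) were higher, while Scn2a (-1.07) and Scn3a (-1.85) were lower. Scn3b, an auxiliary beta subunit, stood at 0 to 31.0 CPM, median 8.78, against 57.3 to 90.5 CPM, median 73.0 (-2.39 ± 0.27). A value of 0 means that no UMI was counted in the members of that mouse.

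Of 13 calcium channel genes, 4 were higher and 7 lower. Cacna1a, the pore of the P/Q-type channel that triggers release from parvalbumin terminals, lay at 1075 to 1495 CPM, median 1323, against 713 to 925 CPM, median 817 (0.71 ± 0.09, adjusted p = 1.29e-07). Its N-type counterpart Cacna1b was lower (-0.60 ± 0.11, adjusted p = 0.000100). The alpha2delta subunits, which carry calcium channels to the membrane, differed in direction. Cacna2d2 stood at 286 to 416 CPM, median 370.1, against 102 to 234 CPM, median 135 (1.30 ± 0.12), while Cacna2d1 stood at 33.1 to 93.1 CPM, median 51.4, against 442 to 651 CPM, median 499 (-3.22 ± 0.14, adjusted p = 2.98e-17). The highest Cacna2d1 value in parvalbumin nuclei was below the lowest in the others, and this was also the channel gene with the smallest adjusted p. The R-type pore Cacna1e (-2.46) and the T-type pore Cacna1g (-1.95) were lower as well.

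In the release machinery the isoforms differed while most shared components did not pass the test. Of 17 tested genes, 4 were higher, among them Syt2, Cplx1 and Vamp1, and 4 lower (Cplx2, Rims1, Snap25 and Pclo). Complexins clamp and then promote vesicle fusion, and here Cplx1 lay at 58.5 to 139 CPM, median 107, against 43.5 to 64.8 CPM, median 53.6 (1.04 ± 0.14) and Cplx2 at 0 to 24.1 CPM, median 16.0, against 64.4 to 89.2 CPM, median 81.3 (-2.44 ± 0.22). The Cplx2 groups did not overlap. Vamp1, the vesicle SNARE, lay at 24.1 to 62.9 CPM, median 37.7, against 9.44 to 22.6 CPM, median 15.6 (1.35 ± 0.21), while Vamp2 had a log2 difference of 0.13 that did not pass. The vesicular GABA transporter Slc32a1 (0.05 ± 0.11, adjusted p = 0.810) did not pass either.

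Perineuronal net genes were divided and thinly counted, with 7 of 13 listed genes reaching the count filter, 3 of them higher and 3 lower. Bcan, the brevican core protein, stood at 82.8 to 226 CPM, median 134, against 40.6 to 55.5 CPM, median 48.0 (1.61 ± 0.15, adjusted p = 1.41e-08). Hapln4, the link protein that binds brevican to hyaluronan, stood at 8.35 to 41.5 CPM, median 18.5, against 4.04 to 13.7 CPM, median 6.24, with overlapping ranges (1.72 ± 0.29, adjusted p = 2.76e-05), and the cross-linker Tnr was higher at 0.65. Acan, the aggrecan gene and a defining net component, had 44 UMIs in all members and was too sparse to test, at 5.10 to 43.8 CPM, median 16.1, against 0.363 to 2.86 CPM, median 1.42. Vcan (-3.42), Hapln1 (-1.89) and Ncan (-0.57) were lower.

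**Figure D2:**
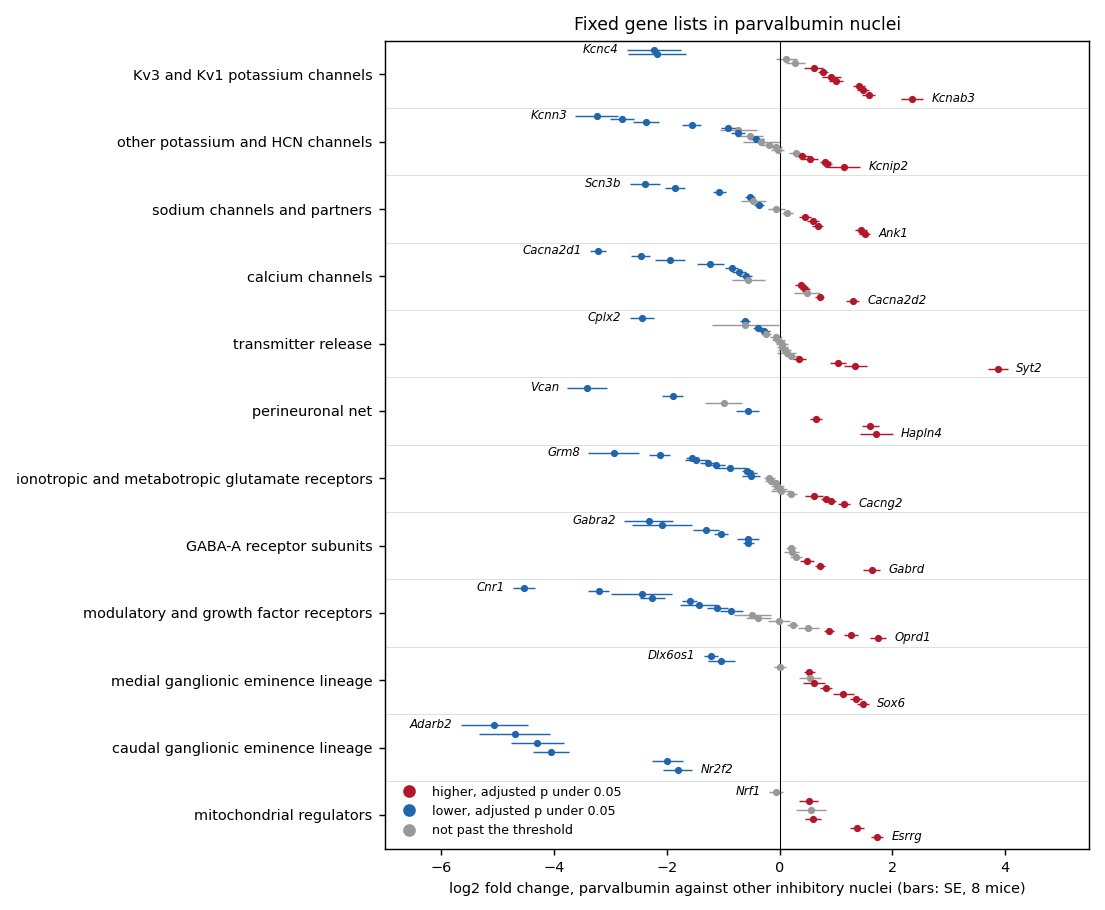
Log2 fold change of parvalbumin over other inhibitory nuclei (horizontal axis, points with SE bars) for the tested genes of 12 gene lists, coloured by whether the gene was higher, lower or did not pass at an adjusted p of 0.05. The Kv3 and Kv1 list lies mostly to the right, the caudal lineage list lies wholly to the left, and the other channel and receptor lists hold genes on both sides.

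Among glutamate receptor genes, 4 of 21 tested were higher and 10 lower. All 4 belong to AMPA receptors, which give these cells their fast excitatory input. Gria3 lay at 742 to 1228 CPM, median 938, against 413 to 589 CPM, median 508 (0.91 ± 0.09) and Gria4 at 1573 to 2266 CPM, median 1899, against 875 to 1265 CPM, median 1039.8 (0.83 ± 0.09). Their trafficking partner Cacng2 (stargazin) lay at 189 to 267 CPM, median 236, against 95.5 to 126 CPM, median 103 (1.15 ± 0.10), and Cacng3 had a log2 fold change of 0.62. None of the first 3 overlapped between the groups. The other AMPA subunits Gria1 (0.21) and Gria2 (-0.18) did not pass. Lower genes included the NMDA subunits Grin2a (-1.13 ± 0.16) and Grin3a (-2.13 ± 0.19), 4 kainate subunits with Grik1 (-1.48) furthest, the metabotropic receptors Grm8 (-2.94) and Grm7 (-1.55), and Nptxr (-0.87).

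GABA-A receptor subunits were 3 higher and 6 lower of 12 tested. Gabrd, the delta subunit of extrasynaptic receptors that carry tonic inhibition, lay at 79.3 to 199 CPM, median 139, against 30.0 to 86.8 CPM, median 45.3 (1.64 ± 0.16, adjusted p = 1.37e-08). The ranges overlapped slightly. Gabrg3 (0.72) was also higher, and Gabra2 (-2.32), Gabrg1 (-2.09), Gabra5 (-1.30) and Gabrb1 (-1.04) were among those lower.

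Of 16 modulatory and growth factor receptor genes tested, 3 were higher and 8 lower. Cnr1, the cannabinoid receptor that marks the cholecystokinin class of basket cells, was the furthest, at 3.70 to 24.0 CPM, median 16.8, in parvalbumin nuclei against 236 to 451 CPM, median 326, in the others (-4.53 ± 0.20, adjusted p = 2.99e-16). It was 47.9 to 158 CPM, median 72.6, in Sst nuclei and 587 to 943 CPM, median 758, in Vip nuclei, so the parvalbumin range lay below both. Oprd1, the delta opioid receptor, lay at 100.2 to 214 CPM, median 179, against 28.9 to 68.3 CPM, median 53.7 (1.75 ± 0.14). The neurotrophin-3 receptor Ntrk3 lay at 773 to 1369.9 CPM, median 1134, against 355 to 597 CPM, median 442 (1.27 ± 0.12), and the neuregulin receptor Erbb4 at 6597 to 9210.5 CPM, median 7478, against 3242 to 5257 CPM, median 4352 (0.88 ± 0.10). None of these genes overlapped between the groups. Htr2c (-3.21), Npy1r (-2.45), Chrna7 (-2.25), Chrm3 (-1.59) and the mu opioid receptor Oprm1 (-1.10) were lower.

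Of 10 genes of the medial ganglionic eminence, 6 were higher and 2 lower, and of 6 tested genes of the caudal eminence all 6 were lower. Sox6, a transcription factor of medial interneurons, lay at 293 to 579.9 CPM, median 341, against 91.8 to 173 CPM, median 141 (1.48 ± 0.11, adjusted p = 4.51e-12), and Mef2c at 839 to 1174 CPM, median 999, against 298 to 470.3 CPM, median 395 (1.35 ± 0.11, adjusted p = 2.06e-11). Satb1 (0.82), Lhx6 (0.61) and Nxph1 (0.53) were higher too, Dlx1 (-1.03) and Dlx6os1 (-1.22) were lower, and Maf did not pass (0.01). Adarb2 was at 15.3 to 700.2 CPM, median 65.6, against 2200.0 to 3714 CPM, median 3396 (-5.06 ± 0.60). Its highest value came from WT 1, which held 192 of the 307 Adarb2 UMIs of all members, 158 of them in 3 nuclei. Npas1 (-4.70), Reln (-4.29), Cxcl14 (-4.06), Prox1 (-1.99) and Nr2f2 (-1.81) completed the list.

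Neuropeptide and subtype genes were 2 higher and 6 lower of 10 tested. Ndnf (-4.96) and Lamp5 (-4.58), which mark neurogliaform cells, were both at a median of 0 CPM in the members. Cck (-1.76), Npy (-2.69), Pnoc (-1.97) and the calcium buffer Calb1 (-1.24) were lower. Crhbp, a secreted protein that binds corticotropin-releasing hormone, was higher at 0.86 ± 0.14 (adjusted p = 1.14e-05), and Tac1, the substance P precursor, lay at 24.8 to 276 CPM, median 117, against 13.1 to 103 CPM, median 49.1 (1.57 ± 0.45, adjusted p = 0.0393). The Tac1 call was lost on leaving out any 1 of 7 of the 8 libraries. Dchs2 and Rgs12, outside the lists, were among the genes furthest down (-4.78 and -4.70).

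Of the 19 amyloid pathway and study genes, 1 was higher and 5 lower. Homer2, a postsynaptic scaffold, had the smallest adjusted p (-1.08 ± 0.15, adjusted p = 1.02e-06), and the others lower were Gsap itself (-1.46 ± 0.39, adjusted p = 0.00600), Pld3 (-0.54), Homer1 (-0.48) and App (-0.32 ± 0.10, adjusted p = 0.0132). Bin1 was higher (0.33 ± 0.12, adjusted p = 0.0347). Gsap had 12 UMIs in all members. The gamma-secretase genes Psen2 (-0.16), Psenen (-0.07), Ncstn (0.07) and Aph1a (0.17) and the beta-secretase gene Bace1 (0.05) did not pass. Of 12 activity-regulated genes only 3 were counted deeply enough to test, and Nr4a1 (-1.06) and Homer1 were lower.

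Against Sst nuclei, the nearest class by origin, 840 genes were higher (10.7% of 7818 tested) and 842 lower (10.8%) at an adjusted p under 0.05, of which 208 (2.66%) and 337 (4.31%) had a log2 fold change over 1. Of 10 tested genes of the Kv3 and Kv1 list 8 were higher and 0 lower, whereas of 9 medial lineage genes 2 were higher and 0 lower. Of 4 tested caudal lineage genes 0 were higher and 3 lower, so low levels of this list also set members apart from Sst nuclei. Erbb4 lay at 6597 to 9210.5 CPM, median 7478, in parvalbumin and at 1201 to 2742 CPM, median 2196, in Sst nuclei (1.95 ± 0.13). Both phosphodiesterase genes named by the rule break down cyclic nucleotides. Pde11a stood at 58.5 to 293 CPM, median 219, against 3.92 to 30.5 CPM, median 10.6 (3.84 ± 0.52, adjusted p = 0.00119) and Pde5a at 41.4 to 158 CPM, median 75.2, against 1.56 to 15.7 CPM, median 6.48 (3.59 ± 0.24, adjusted p = 3.35e-12). Cemip, a hyaluronan-degrading protein, stood at 253 to 546 CPM, median 369, against 43.8 to 71.4 CPM, median 55.6 (2.79 ± 0.14). The zinc finger factors Trps1 (2.68 ± 0.22) and Zbtb7c (2.99 ± 0.50) were higher, and the secreted proteins Reln (-4.43 ± 0.54) and Adamtsl1 (-3.98 ± 0.20) were lower.

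Against Vip nuclei, 647 genes were higher (15.4% of 4203 tested) and 655 lower (15.6%), of which 262 (6.23%) and 259 (6.16%) had a log2 fold change over 1. All 7 tested genes of the Kv3 and Kv1 list were higher, among them Kcna1 (2.04 ± 0.20) and Kcns3 (2.69 ± 0.33). All 6 caudal lineage genes were lower. Slit2, an axon guidance ligand, stood at 331 to 451 CPM, median 387, against 0 to 57.1 CPM, median 14.5 (4.21 ± 0.31, adjusted p = 1.99e-08), and Gabrd had a log2 fold change of 3.44 ± 0.34. Erbb4 did not pass (0.21 ± 0.13, adjusted p = 0.242). The named genes furthest down were Tac2, the neurokinin B precursor, at 0 to 1.85 CPM, median 0, against 106 to 522 CPM, median 351, Adarb2 (-7.10), Fxyd6 (-6.18), Npas1 (-6.01) and the growth factor Igf1, at 0 to 15.3 CPM, median 4.60, against 232 to 541 CPM, median 319. The Vip nuclei of WT 2 numbered only 7, so single values there are imprecise.

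Genes of mitochondrial energy metabolism differed by genome. Of 6 regulators, 4 were higher and 0 lower. Esrrg, the estrogen-related receptor gamma that drives oxidative genes, lay at 587 to 1234 CPM, median 845, against 239.8 to 286 CPM, median 264 (1.73 ± 0.10, adjusted p = 6.02e-14), and its coactivator Ppargc1a (PGC-1alpha) at 138 to 317 CPM, median 178, against 68.6 to 84.4 CPM, median 74.9 (1.38 ± 0.12, adjusted p = 1.38e-10). Neither overlapped between the groups. Ppargc1b (0.59) and Esrra (0.52) were also higher, and Tfam (0.56) and Nrf1 (-0.06) did not pass. Of 80 tested nuclear genes of oxidative phosphorylation, 27 were higher and 0 lower. Their median log2 fold change was 0.31, against -0.0063 over all genes. The list was drawn by symbol and holds Ndufaf assembly factors beside subunits. Cox5a lay at 106 to 167 CPM, median 134, against 50.6 to 93.9 CPM, median 81.9 (0.81 ± 0.11) without overlap, and Cox7b at 149 to 307 CPM, median 239, against 89.0 to 163 CPM, median 141 (0.79 ± 0.10) with overlap. Cox6a2, a cytochrome oxidase isoform of muscle, had the largest change (2.12 ± 0.31, adjusted p = 3.33e-06) on 62 UMIs, at 9.91 to 83.5 CPM, median 23.0, against 2.57 to 24.9 CPM, median 5.49.

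The 13 subunit genes encoded in mitochondrial DNA moved the other way, with 0 higher and 9 lower of 12 tested and a median of -0.44. For example, mt-Co3 lay at 286 to 869 CPM, median 529, against 556 to 1353 CPM, median 652 (-0.44 ± 0.11) and was lower in all 8 mice. Their share of all UMIs was 0.277 ± 0.0860% in parvalbumin and 0.388 ± 0.127% in other inhibitory nuclei (SD, n = 8 mice), lower in 7 of 8 mice (exact 2-sided sign-flip permutation test over mice, p = 0.015625, where 0.0078125 is the smallest possible). Depth per nucleus was higher in the members while this share was lower, and the part of depth in the difference was not tested. The libraries were made from isolated nuclei, and the source of the UMIs from mitochondrial DNA in them was not tested. Without the mouse block 2 of the 12 mitochondrial genes were lower, and on thinned sums 8 of 46 tested nuclear genes were higher and 8 of 10 mitochondrial genes lower. Of all genes tested, 10.9% were called lower without the mouse block, and on thinned sums 8.35% were called higher and 10.4% lower. Against Sst nuclei the counts were 14 of 70 nuclear genes higher and 0 lower, and 0 of 11 mitochondrial genes higher and 9 lower. Against Vip nuclei they were 8 of 34 higher and 0 lower, and 0 of 9 higher and 8 lower.

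Estrogen-related receptors bind the element AAGGTCA, so the 250 bases before the RefSeq starts were searched for it on both strands. It occurred in 4.08% of all 32851 windows, in 6.14% of windows of the genes over 1 log2 unit higher in parvalbumin nuclei (14 of 199 matched genes), in 3.21% of those lower and in 2.71% of those of all tested genes. Among the 27 oxidative phosphorylation genes that were higher, 20 were matched and 2 held it. The longer form TCAAGGTCA, which contains the shorter, occurred in 0.387% of windows. Syt2 (chr1:134646362-134646611, plus strand), the named gene furthest up, Adamtsl5 (chr10:80348449-80348698, minus strand), the next named gene with an element, and Atp5g3 (chr2:73911327-73911576, minus strand), an ATP synthase subunit gene higher in parvalbumin nuclei (0.73 ± 0.20), are shown 5′ to 3′ along the gene, with the element in capitals (GRCm38.p6). Syt2 has 2 promoter windows, of which the first that holds the element is shown, whereas Adamtsl5 and Atp5g3 have 1 each. The element lies at -167, -203 and -52 relative to the start, respectively. In Syt2 and Atp5g3 it lies on the opposite strand, as TGACCTT, within the longer form. These are matches of letters in a window and no evidence of binding.
Syt2: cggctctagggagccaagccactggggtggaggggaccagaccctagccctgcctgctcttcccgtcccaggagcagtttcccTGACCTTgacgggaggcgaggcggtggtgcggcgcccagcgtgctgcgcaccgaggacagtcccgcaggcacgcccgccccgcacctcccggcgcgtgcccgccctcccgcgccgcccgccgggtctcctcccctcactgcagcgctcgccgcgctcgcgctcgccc
Adamtsl5: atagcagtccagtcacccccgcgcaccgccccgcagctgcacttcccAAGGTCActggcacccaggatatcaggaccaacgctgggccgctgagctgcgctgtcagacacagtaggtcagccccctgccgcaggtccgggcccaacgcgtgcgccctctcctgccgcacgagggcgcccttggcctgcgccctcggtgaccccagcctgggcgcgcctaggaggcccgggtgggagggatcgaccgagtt
Atp5g3: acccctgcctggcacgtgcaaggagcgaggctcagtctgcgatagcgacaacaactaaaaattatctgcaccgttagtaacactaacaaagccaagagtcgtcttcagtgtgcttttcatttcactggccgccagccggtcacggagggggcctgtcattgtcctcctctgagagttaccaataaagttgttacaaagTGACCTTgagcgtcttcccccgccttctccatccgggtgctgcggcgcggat

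Within the parvalbumin nuclei, Tac1 and Unc5b were counted in different nuclei. Tac1 had been listed as a basket cell gene and Unc5b, a netrin receptor, as an axo-axonic cell gene. At least 3 UMIs of Tac1 were found in 33 members (25.2%) and at least 3 of Unc5b in 16 (12.2%), 0 members had both and 82 had neither. At 1 UMI or more the counts were 52 and 34, with 4 nuclei holding both. In excitatory nuclei the shares with at least 3 UMIs were 0.153% for Tac1 and 0.386% for Unc5b (median depth 12368 UMIs, against 16154 in members), the same background class. In Sst nuclei they were 9.73% and 1.58%. In the 976 remaining inhibitory nuclei they were 5.23% and 5.74%, with 1 nucleus holding both. Tac1 nuclei came from 7 of the 8 libraries and so did Unc5b nuclei, and in WT 1 and GKO 1 they numbered 1 and 1, and 0 and 2. As sums over mice, neither list was distinct, since Unc5b did not pass against other inhibitory nuclei (0.88 ± 0.40, adjusted p = 0.157), Cpne5 of the axo-axonic list was lower (-2.78), Rspo2 of the basket list did not pass (0.22), and Vipr2, Pthlh and Tpbg were too sparse to test.

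**Figure D3:**
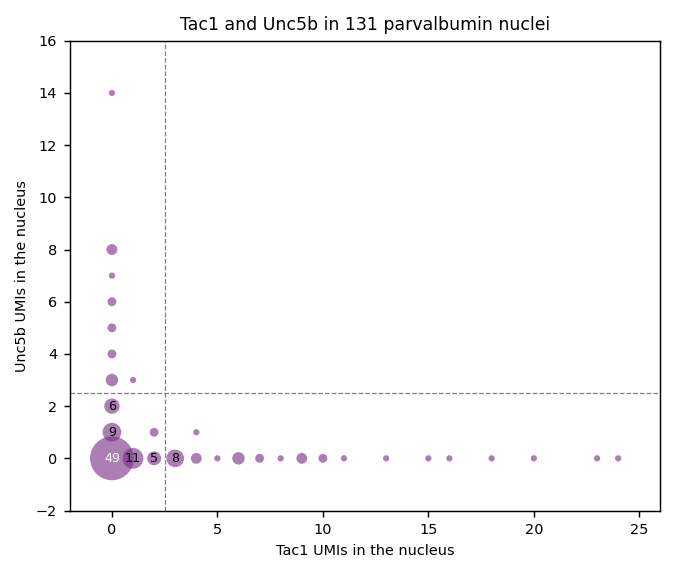
Tac1 UMIs (horizontal axis) against Unc5b UMIs (vertical axis) in each of the 131 parvalbumin nuclei, with bubble area giving the number of nuclei at a point and dashed lines marking the step to 3 UMIs. The 33 nuclei to the right and the 16 above share no member, and Tac1 reached 24 and Unc5b 14 UMIs.

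Other genes differed between these sets of nuclei. The split was drawn after their values were seen and pools nuclei over mice, so the values are given without a test, with exact 95% Poisson intervals that cover counting error only. Fgf13, an intracellular partner of sodium channels, was at 275 CPM (230.2 to 325) in the Tac1 nuclei and 1749 CPM (1602 to 1906) in the Unc5b nuclei. Pde11a was at 36.6 CPM (21.7 to 57.9) in the Tac1 nuclei and 546 CPM (465 to 637) in the Unc5b nuclei, with a UMI in 12 of the 16 Unc5b nuclei, and Zbtb7c at 22.4 CPM (11.2 to 40.0) in the Tac1 nuclei and 299.9 CPM (241 to 369) in the Unc5b nuclei, with a UMI in 14 of 16. Both Pde11a and Zbtb7c are among the genes named above as higher than in Sst nuclei. Adarb2, of the caudal list, was at 20.3 CPM (9.75 to 37.4) in the Tac1 nuclei. In the Unc5b nuclei it was at 411 CPM (341 to 491), with a UMI in 5 of 16. In the other direction, Crhbp was at 232 CPM (191 to 278) in the Tac1 nuclei and 10.1 CPM (2.08 to 29.6) in the Unc5b nuclei, with a UMI in 27 of the 33 Tac1 nuclei, and Npy at 150.5 CPM (118 to 189) in the Tac1 nuclei and 3.37 CPM (0.0853 to 18.8) in the Unc5b nuclei, although only 7 nuclei held it. Rbp4, a retinol carrier, had 77 UMIs in 22 of the Tac1 nuclei and 0 in the Unc5b nuclei. Among genes higher in parvalbumin than in other inhibitory nuclei, the intervals overlapped for Kcnc1 at 883 CPM (802 to 969.8) in the Tac1 nuclei and 795 CPM (697 to 904) in the Unc5b nuclei, and Erbb4 at 8506 CPM (8250.0 to 8768) in the Tac1 nuclei and 9035 CPM (8696 to 9383) in the Unc5b nuclei. They did not overlap for Kcnc2 (2367 and 1348 CPM), Sox6 (397 and 239 CPM), Satb1 (315 and 91.0 CPM), Kcna1 (252 and 142 CPM) and Gabrd (171 and 84.3 CPM), each with the first value from the Tac1 nuclei.

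The share of parvalbumin nuclei did not differ detectably between GKO and WT. Among inhibitory nuclei it was 5.45, 9.91 and 9.32% in the WT mice and 5.05, 11.8 and 6.81% in the GKO mice, or 8.23 ± 2.42% against 7.88 ± 3.49% (SD, n = 3 mice each, difference -0.348 percentage points, exact 2-sided permutation test, p = 0.9). The ranges of the groups overlapped. With 3 mice against 3 the smallest p this test can give is 0.1. Among all nuclei the shares were 0.386 ± 0.108% and 0.442 ± 0.196% (difference 0.0564, exact permutation p = 0.7). Within the first date the difference in the inhibitory share was -0.404 (1 WT and 1 GKO mouse) and within the second -0.319 (2 of each). After every nucleus was thinned to 5000 UMIs, which left out 6617 WT and 6108 GKO nuclei that were shallower, 22 of 974 inhibitory nuclei were members, at 3.19 ± 0.891% in WT and 2.58 ± 1.39% in GKO mice (SD, n = 3 each, exact permutation p = 0.7). The J20;WT mouse had 5.30% (95% exact binomial interval 2.16 to 10.6) and the J20;GKO mouse 8.29% (4.71 to 13.3), both inside the range of the other 6 mice. Median depth per member was 16775 ± 2527 UMIs in WT and 16662 ± 3307 in GKO mice.

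**Figure D4:**
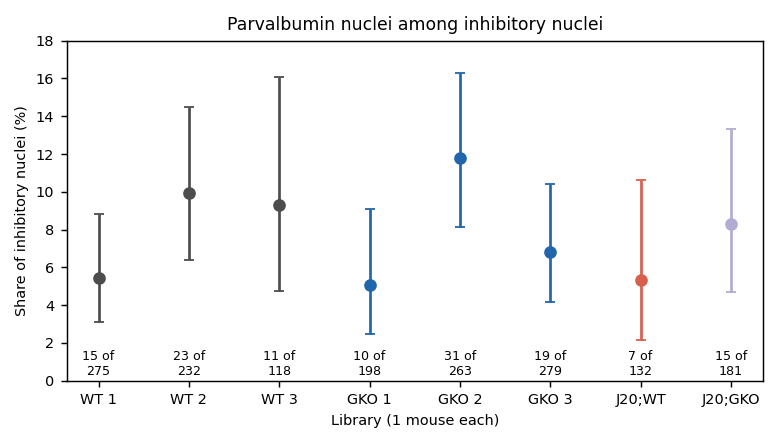
Parvalbumin nuclei as a percentage of inhibitory nuclei in each of the 8 libraries, with 95% exact binomial intervals. WT and GKO mice overlap, and the lowest value of each group is that of replicate 1.

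Expression in parvalbumin nuclei was compared between GKO and WT mice. Gsap, the targeted gene, had 12 UMIs in the members of all 8 libraries. Over all nuclei it was at 22.5, 23.0 and 22.3 CPM in WT mice and 19.8, 21.8 and 22.0 CPM in GKO mice, so counts over the whole gene, which are not split by exon, do not check the genotype labels. Of 5424 genes tested in parvalbumin nuclei with edgeR's quasi-likelihood test, 0 passed an adjusted p of 0.05 with a log2 fold change over 0.3 (0% called). The smallest adjusted p was 0.351. At an unadjusted p under 0.05 there were 193 genes (3.56%), and 72 with DESeq2, which also called 0. The median SE of a log2 fold change was 0.319. The effect of GKO in parvalbumin nuclei minus that in other inhibitory nuclei passed for 0 of 10017 genes, with 372 (3.71%) at an unadjusted p under 0.05.

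The 3 genes with the smallest unadjusted p were Samd4, Slc1a2 and 4930555F03Rik. Samd4, which encodes an RNA-binding protein of the Smaug family, was at 83.9, 66.1 and 66.3 CPM in the WT mice and 19.8, 16.6 and 24.1 CPM in the GKO mice (-1.84 ± 0.37, adjusted p = 0.351). Slc1a2, the glutamate transporter of astrocytes, was at 21.9, 21.0 and 15.3 CPM in the WT mice and 59.5, 86.9 and 48.3 CPM in the GKO mice (1.79 ± 0.40, adjusted p = 0.580). 4930555F03Rik was at 47.4, 102 and 117 CPM in the WT mice and 144, 216 and 269 CPM in the GKO mice (1.30 ± 0.30, adjusted p = 0.611). The groups did not overlap in any of the 3, which were chosen for small p, and none passed after adjustment. With a batch term for the date, Samd4 and 4930555F03Rik passed, among 3 genes in all, and without the filter on low counts all 3 genes discussed here were among the 10 that passed. Beside Slc1a2, the summed level of all 6 astrocyte markers in these nuclei was 30.1 to 40.8 CPM in WT and 62.1 to 170 CPM in GKO mice, and that of the 5 other than Slc1a2 was 9.02 to 25.5 CPM in WT and 9.91 to 83.2 CPM in GKO mice, with 0 of them at 0 over all members. Their part in the Slc1a2 difference was not tested. The J20;WT mouse had 33.4 CPM of Samd4 (95% exact Poisson interval 9.10 to 85.6) and the J20;GKO mouse 70.6 (41.1 to 113). For Slc1a2 the values were 25.1 (5.17 to 73.2) and 33.2 (14.3 to 65.4). In Samd4 the J20;GKO value lay within the WT range and the J20;WT value between the WT and GKO ranges.

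Genes of the study's neuronal questions showed no change between GKO and WT mice that passed. The study reported Homer1, Homer2 and Bin1 as higher in J20;GKO mice, in excitatory and inhibitory neurons as whole classes. It also named Pld3, Sorl1, Bin1 and Fermt2 as raised by the deletion in both classes, and proposed that this may protect neurons in Alzheimer's disease. The contrast of the J20 mice has 1 mouse per genotype and was not tested in parvalbumin nuclei. App was at 493 ± 77.5 CPM in WT and 469 ± 49.9 CPM in GKO mice (SD, n = 3 mice each), with a log2 fold change of -0.04 ± 0.22, and its adjusted p by edgeR was 0.996. Homer1 (-0.13 ± 0.30), Homer2 (0.17 ± 0.36), Bin1 (-0.11 ± 0.27), Sorl1 (0.18 ± 0.30), Pld3 (-0.40 ± 0.35) and Fermt2 (0.04 ± 0.31) did not pass either. In the J20;GKO mouse App was at 660 CPM (95% exact Poisson interval 561 to 771), above the 424 to 577 CPM of the 6 mice without the transgene, and in the J20;WT mouse at 426 (317 to 560). Reads were counted against the mouse reference mm10, and whether reads of the human transgene were counted as App was not tested.

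The genes that set parvalbumin nuclei apart showed no difference between GKO and WT mice that passed. Kcnc1 was at 801 ± 144 CPM in WT and 853 ± 164 CPM in GKO mice (SD, n = 3 mice each), and Syt2 at 215 ± 86.2 and 177 ± 31.8 CPM. Their log2 fold changes were 0.13 ± 0.24 and -0.25 ± 0.27, and neither passed. The J20;GKO mouse had 95.5 CPM of Syt2 (60.5 to 143), against 117 to 281 in the 6 mice without the transgene, and the J20;WT mouse had 175 (109 to 268). In every list used for the class comparisons, 0 genes passed for GKO against WT. The 6 oligodendrocyte markers summed to 390 to 816 CPM in WT and 187 to 469 CPM in GKO members, and the 5 microglia markers to 58.4 to 122 and 131 to 179 CPM. Their part in the per-gene values was not tested.

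**Figure D5:**
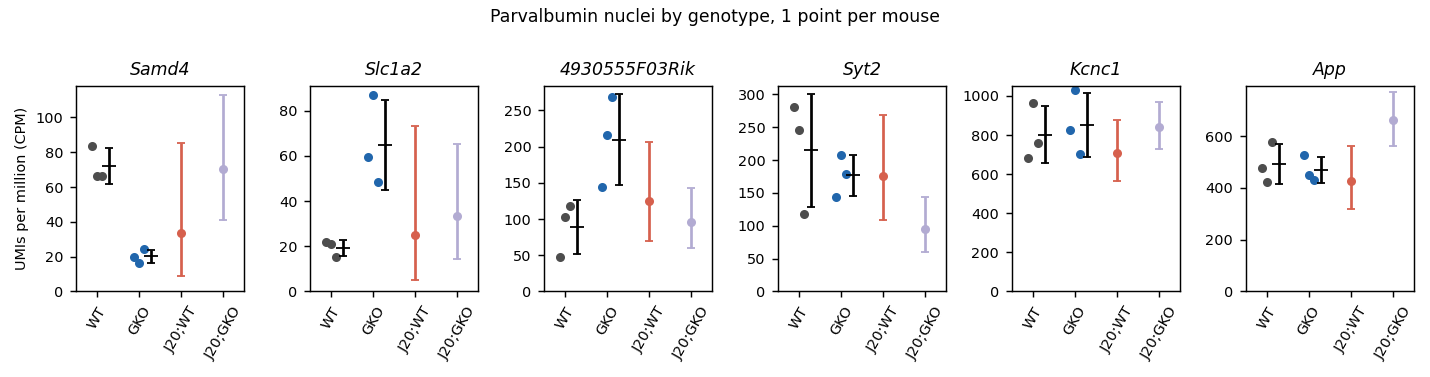
Levels (CPM) of Samd4, Slc1a2, 4930555F03Rik, Syt2, Kcnc1 and App in parvalbumin nuclei, 1 point per mouse, with mean and SD for WT and GKO (3 mice each) and 95% exact Poisson intervals for the single J20 mice. WT and GKO do not overlap in the first 3 genes, chosen for their small p, and overlap in the others.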

How the data were processed

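Nuclei were isolated from mouse hippocampus and sequenced with the 10x Genomics protocol. The deposited values are raw UMI counts per gene and nucleus, which the authors made with Cell Ranger (3.0.2 per the file headers) against mm10; the submitters' processing notes also name Seurat 3.0 and R 3.6.2. Counts covered 30211 features, and 2731 to 5252 nuclei per library (21020159 to 43310978 UMIs) passed the limits of 5% mitochondrial UMIs and 200 to 7500 genes. No doublet caller was run; 32 members held at least 2 UMIs of glutamatergic or 10 of glial markers and were left out in 1 alternative. No 2 libraries had identical counts.

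Counts were summed per mouse and class and fitted with edgeR 4.0.16 (TMM, filterByExpr, robust quasi-likelihood, Benjamini-Hochberg over all genes tested) in R 4.3.3. Class comparisons used all 8 mice with mouse as a block; GKO against WT used the 6 mice without the transgene, as did the difference of that effect between classes. DESeq2 1.42.0, other scaling and filters, other Pvalb limits, thinning, a batch term and leaving out each library were the alternatives. Shares were tested with exact permutations (scipy 1.17.1), with intervals of 95% that cover counting error only. The labels name 1 mouse per library, so p-values measure the spread between mice. Same-numbered WT and GKO libraries deviated together (r over genes 0.67, 0.268 and 0.334 for all nuclei, 0.449, 0.227 and 0.15 for parvalbumin nuclei), although the labels do not say that numbers mark a shared day; the pairs numbered 2 and 3 correlated as well when crossed (0.297 and 0.424). The numbers were treated as pairs only in a blocked fit, which is among the alternatives. Genes named by size were up to 10 higher and 5 lower per class comparison with the largest log2 fold change past an adjusted p of 0.05, moved alike in all 8 mice, at 50 CPM or more on average where higher and outside the definition; for GKO, the 3 smallest p; all others come from gene lists. The members and the lists were chosen with earlier results of these data known. The fits were tested on simulated counts. Promoter sequences are RefSeq's (GRCm38.p6), and 7631 of the 9995 tested genes matched. Some genes of the lists enter the counts but are not reported by name here.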

Additional observations from a re-analysis of the deposited data

How the results depend on the processing

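The differences between parvalbumin and other inhibitory nuclei rested on sums from 7 to 31 nuclei per mouse, which limits genes under about 50 CPM. Without a filter on low counts 1497 genes passed against other inhibitory, 1096 against Sst and 1269 against Vip nuclei, and on sums thinned to 5000 UMIs 498, 255 and 223, where fewer genes reached the filter. Leaving out 1 library each gave 796 to 906, 473 to 580 and 501 to 549. Without the mouse block the counts were 846, 538 and 513. Of the 27 oxidative phosphorylation genes higher, 20 to 26 were so on leaving out a library and 8 of 46 tested after thinning, with 0 lower throughout; of the 9 mitochondrial genes lower, 2 of 12 tested were so without the mouse block.

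For GKO against WT the count of 0 became 10 without the filter (8 higher, 2 lower), 3 with a batch term (2 higher, 1 lower) and 0 to 2 on leaving out a mouse, the 2 (C130073E24Rik and Cx3cr1) without WT replicate 3. Samd4 and 4930555F03Rik were among both the 10 and the 3. With the replicate block it was 0, with 299 genes at an unadjusted p under 0.05, and the block changed no other call between genotypes. The difference of the GKO effect gave 15 genes without the filter (10 higher, 5 lower) and 2 at 3 or more Pvalb UMIs.

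Membership was 203 nuclei at 1 or more Pvalb UMIs and 22 after thinning. The GKO minus WT difference in the inhibitory share turned to 1.078 at 1 or more Pvalb UMIs and ran from -2.3 to 1.068 on leaving out a mouse. The difference in the share of all nuclei was -0.01138 without mixed nuclei, -0.03315 after thinning and -0.04975 to 0.1429 on leaving out a mouse. That in depth was -1729 to 1576 UMIs and that in the mitochondrial share -0.01414 to 0.08861 on leaving out a mouse. None of the study's genes passed in any of these, but signs turned for App (0.0491 at 3 or more Pvalb UMIs, 0.2882 thinned, -0.1523 to 0.07744 leaving out a mouse), Homer1 (-0.3022 to 0.1768 leaving out a mouse), Homer2 (-0.2068 at 1 or more Pvalb UMIs, -0.08287 to 0.4209 leaving out a mouse), Bin1 (-0.2719 to 0.03904 leaving out a mouse), Sorl1 (-0.2962 without mixed nuclei) and Fermt2 (-0.03763 at 3 or more Pvalb UMIs, -0.05123 without mixed nuclei, -0.1301 to 0.2339 leaving out a mouse). The cause was not tested. Single genes were tallied over the alternatives only if listed or named and past an adjusted p of 0.05 in a class comparison. The genes named for GKO against WT were added whether or not they passed. Of 7336 such values, 6783 kept their direction and side of the threshold, 532 lost it, 5 gained it and 16 changed sign. All 16 were in the comparison of genotypes. The class genes were taken because they had passed, so these counts do not describe list genes that did not.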
